A study of Rattus norvegicus with 30 samples.

Results

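The comparison described here is the average effect of added isoflavone on gene expression in rat liver, taken over 2 protein sources. It rests on 20 of the 30 arrays of the study, 1 array per animal. The 10 livers with added isoflavone came from 5 rats on casein with isoflavone (CI) and 5 on soy protein with isoflavone (SI). The 10 livers without it came from 5 rats on casein (C) and 5 on soy protein (S). The effect of each probe set was the mean of the difference CI − C and the difference SI − S, so that protein source was balanced within it. The arrays were chosen by their diet labels alone, with no measured value. The animals were male Sprague-Dawley rats delivered at 4 weeks of age. They ate a commercial diet for 5 days of adaptation and then their assigned diet for 14 days. All diets held 200 g/kg of protein. The isoflavone was a mixture, dosed to the level of the diet whose protein came wholly from freeze-dried tofu (T20). That diet and one with 100 g/kg each from casein and tofu (T10) were not part of the fit.

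Isoflavones are plant phenols of soybean, chiefly genistein and daidzein, which bind estrogen receptors. The liver conjugates them with sulfate and glucuronic acid before excretion. In cell and animal work they have been linked to peroxisome proliferator-activated receptors, to the genes of lipid metabolism and to drug-metabolising enzymes. Soy protein preparations can themselves carry isoflavones unless these have been extracted, and the labels do not state the isoflavone content of the S diet.

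The deposited intensities of the 20 arrays had medians of 217 to 255 with isoflavone and 227 to 240.0 without it. By diet they were 227 to 255 in CI, 228 to 240 in C, 217 to 240 in SI and 227 to 237 in S arrays. The medians of CI replicates 1, 3, 4 and 5 (246 to 255) lay above every C median. The ratio of the 3′ to the 5′ probe sets of Gapdh, a measure of RNA integrity, was 1.04 to 1.19 with isoflavone and 1.01 to 1.25 without it. The same ratio of beta-actin was 1.84 to 2.89 in CI, 2.21 to 2.65 in C, 1.92 to 2.83 in SI and 2.31 to 2.78 in S arrays. In CI replicates 1 to 4 it was 1.84 to 2.19, below every C array. The part of this ratio in the CI − C differences was not tested. The 10 hepatocyte markers, albumin (Alb) among them, lay at the 94.1th percentile or above of all tested probe sets. C replicate 3 and CI replicate 3 carried identical normalization parameters in the labels, and results that move without both are named in the closing section. All levels below are log2 intensities, and a difference of 1 is a doubling.

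No probe set passed the test for the average isoflavone effect. At a Benjamini-Hochberg adjusted p under 0.05 in limma, 0 of 18625 probe sets were called (0%), and the smallest adjusted p was 0.4207. An unadjusted p under 0.05 was reached by 638 probe sets (3.43%), 320 higher with isoflavone (1.72%) and 318 lower (1.71%), where 931 would be reached if p-values were uniform. In the same fit and on the same arrays, the protein source (soy protein against casein, over both isoflavone levels) gave 3810 calls (20.5%). Of these, 1559 were higher on soy protein (8.37%) and 2251 lower (12.1%). Sums of squares were pooled over all probe sets, so the most variable probe sets weigh most. Isoflavone took 3.87% of this variation between arrays, its interaction with protein 6.73% and protein source 19.1%, on 1 degree of freedom each. The differences between animals on the same diet took 70.3%, on 16 degrees of freedom. A source without any effect also takes a share, so 3.87% cannot be read as variation explained by isoflavone.

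The absence of calls came with fairly narrow intervals for most probe sets. The median standard error of the average effect was 0.09, and the median size of the difference was 0.06. The 95% confidence interval lay wholly inside a 1.5-fold change in either direction for 17527 probe sets (94.1%) and inside 2-fold for 18396 (98.8%). For the effect on each protein alone the intervals were wider. They lay inside 1.5-fold for 15077 probe sets (81%) for CI − C and for 15503 (83.2%) for SI − S. All these intervals are per probe set and are not adjusted for the number of probe sets. The estimate itself was over 1.5-fold for 62 probe sets and over 2-fold for 10, and none of them passed.

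**Figure D1:**
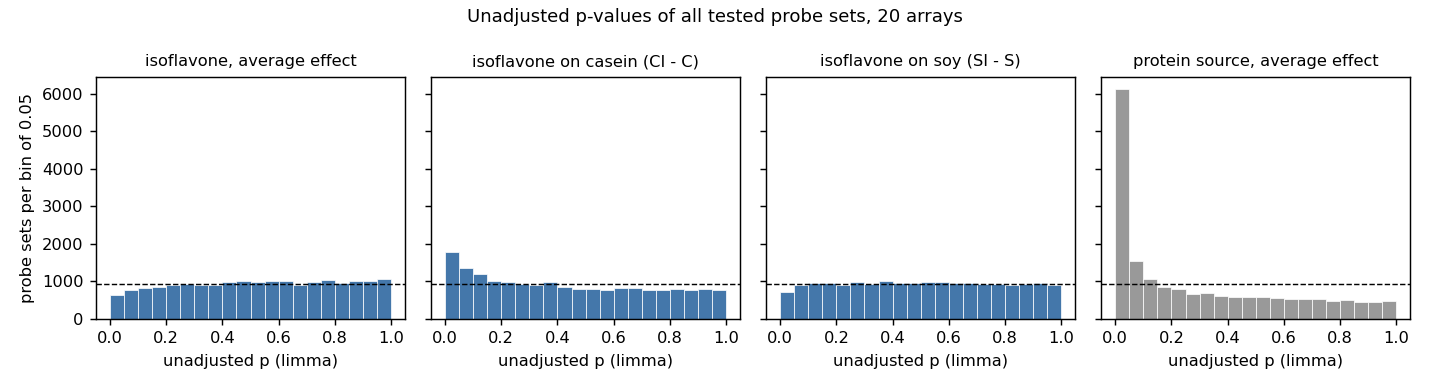
Number of probe sets in each bin of unadjusted p (bin width 0.05) from limma for the average isoflavone effect, isoflavone on casein, isoflavone on soy protein and protein source, over 18625 probe sets and 20 arrays, with a dashed line at the 931 of a uniform distribution. The lowest bin holds 638 probe sets for the average isoflavone effect and 1772 for isoflavone on casein, and is far taller for protein source.

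The genes of smallest p are described next as the head of a ranking in which nothing passed. Their adjusted p in limma was 0.9997 except for Frmpd2 (0.4207). They were ranked on these same arrays, so groups lying apart in them are partly a product of the choice. Among those higher with isoflavone, Frmpd2, a scaffold protein with FERM and PDZ domains, came first. Its levels were 7.90, 8.22, 8.07, 8.41 and 8.45 in CI livers, against 7.52, 6.77, 7.22, 6.41 and 7.41 in C livers. They were 7.45, 7.61, 7.88, 7.44 and 7.76 in SI livers, against 7.24, 7.45, 7.50, 7.15 and 6.56 in S livers. Every CI liver lay above every C liver, while SI and S livers overlapped. The average difference was 0.80 ± 0.14 (SE), with a 95% interval of 0.49 to 1.10. The C and S means were below the level of 7.39 that the mean over all arrays had to exceed for testing, so this gene sat near the dim end of the tested range.

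Hsd11b1 encodes the enzyme that regenerates active glucocorticoid in liver. Its levels were 14.70, 14.46, 14.69, 14.66 and 14.76 in CI livers, against 14.28, 13.77, 13.99, 14.09 and 14.43 in C livers. They were 15.14, 14.95, 14.98, 14.92 and 14.91 in SI livers, against 14.95, 15.02, 14.86, 14.78 and 15.02 in S livers. The groups were apart on casein and overlapped on soy protein. The average difference was 0.30 ± 0.07, with an interval of 0.15 to 0.44. Its protein effect was higher on soy protein by 0.57 ± 0.07, with an adjusted p of 1.22e-05 in limma.

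The other 6 of the 8 higher genes had average differences of 0.25 to 0.50. Dcbld2, a transmembrane receptor-like protein, had 7.98 to 8.09 in CI livers, against 7.29 to 7.67 in C livers. It had 7.73 to 7.87 in SI livers, against 7.33 to 7.92 in S livers. CI and C livers were thus apart and SI and S livers were not. Septin3, a cytoskeletal GTP-binding protein, differed by 0.40 ± 0.10, from 0.77 on casein and 0.03 on soy protein. Nfasc, a cell adhesion protein of the neurofascin type, differed by 0.46 ± 0.12, although its second probe set differed by −0.02. Ahnak2, a large scaffold protein, differed by 0.38 ± 0.11 and Tmem229a, a transmembrane protein, by 0.25 ± 0.07. Rpl37a, a protein of the large ribosomal subunit, differed by 0.50 ± 0.15, from 0.91 on casein and 0.09 on soy protein. Its C livers spread from 13.11 to 14.71, whereas the CI livers held 14.29 to 14.80. Ribosomal protein genes have many near-identical pseudogene copies, and cross-hybridisation to them was not tested.

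Among the 8 genes lower with isoflavone, Cnp had the smallest p. It encodes a cyclic nucleotide phosphodiesterase best known from myelin. Its levels were 9.35, 9.70, 9.21, 9.32 and 9.25 in CI livers, against 9.60, 9.83, 9.97, 10.12 and 9.37 in C livers. They were 9.45, 9.21, 9.45, 9.32 and 9.27 in SI livers, against 9.77, 9.39, 9.84, 9.75 and 9.70 in S livers. Both pairs of groups overlapped. The difference was −0.41 on casein and −0.35 on soy protein, the average was −0.38 ± 0.09 with an interval of −0.57 to −0.19, and a second probe set gave −0.34.

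Ubd, a ubiquitin-like modifier induced by inflammatory cytokines, had the largest estimate of the 16 leading genes. Its levels were 10.57, 11.77, 6.67, 7.30 and 7.84 in CI livers, against 11.80, 12.22, 11.35, 12.05 and 12.29 in C livers. They were 10.70, 10.97, 8.19, 11.76 and 11.80 in SI livers, against 11.34, 12.47, 10.78, 11.40 and 11.18 in S livers. CI replicates 3, 4 and 5 and SI replicate 3 lay far below the rest of their groups. The average difference was −1.93 ± 0.55, with an interval of −3.08 to −0.78. Low Ubd levels were also present in tofu-fed rats, at 8.32 in T20 replicate 1 and at 8.39 and 8.47 in T10 replicates 3 and 5.

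The other 6 lower genes differed by −0.36 to −0.22. Ly6e, an interferon-inducible membrane protein, had an average difference of −0.36 ± 0.09. It was lower by a similar amount on both proteins, −0.42 on casein and −0.29 on soy protein. Kat7, a histone acetyltransferase, differed by −0.31 ± 0.08. Kdm2a, a histone demethylase, differed by −0.22 ± 0.06. Cbx6, a Polycomb protein, differed by −0.22 ± 0.07. Trim37, a ubiquitin ligase, differed by −0.28 ± 0.08. Over all tested probe sets, CI and C livers were apart for 1.73% and SI and S livers for 0.489%. Kat7, Kdm2a, Cbx6 and Trim37 had every CI liver below every C liver and overlapping SI and S livers. Kif2a, a kinesin that depolymerises microtubules, had the opposite arrangement: SI livers held 8.15 to 8.35 against 8.45 to 8.76 in S livers, whereas CI livers at 8.14 to 8.51 overlapped C livers at 8.26 to 8.70. Its average difference was −0.23 ± 0.07. The probe sets of 3 of these genes disagreed in size or sign, ranging from −0.22 to −0.00 for Kdm2a, −0.22 to −0.06 for Cbx6 and −0.28 to 0.05 for Trim37.

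**Figure D2:**
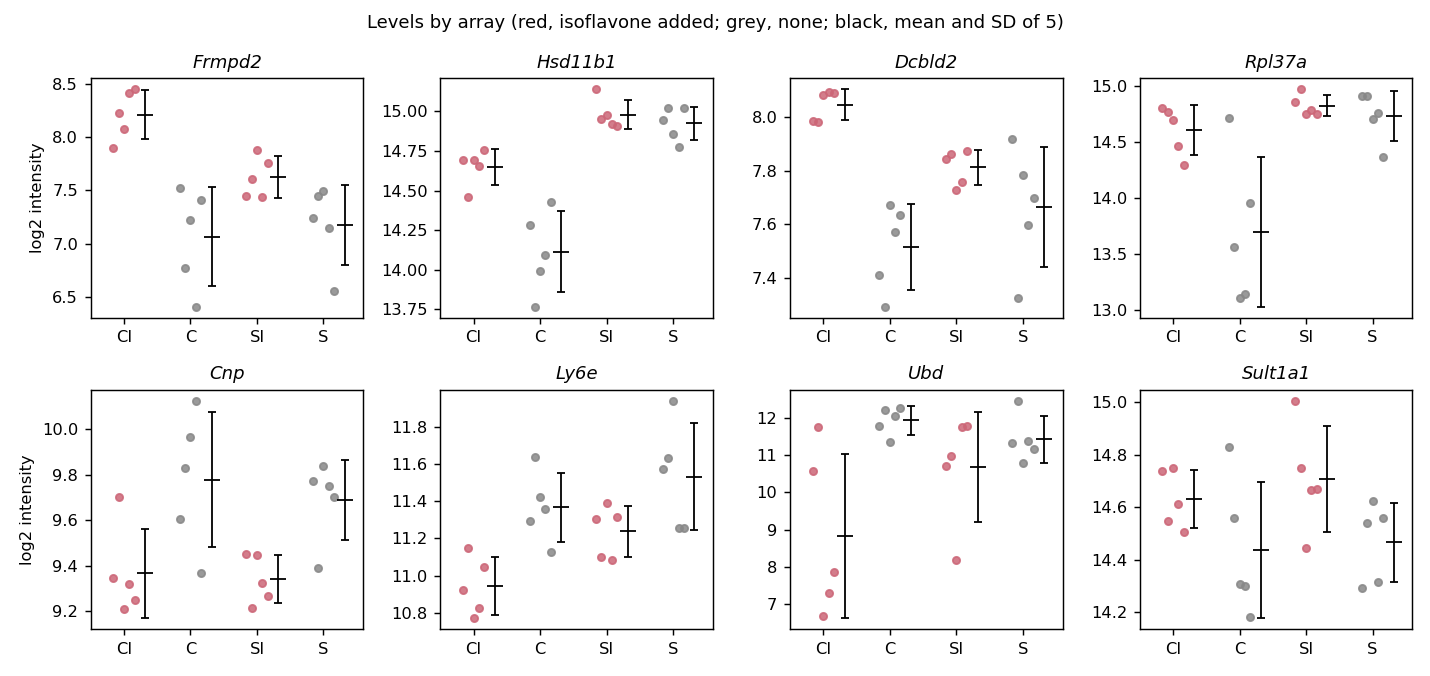
Log2 intensity in each liver for 7 leading genes of the ranking by p and Sult1a1, in the order CI, C, SI and S, with 1 point per animal (red with isoflavone, grey without) and the mean and SD of each diet in black (n = 5). Frmpd2 and Hsd11b1 are apart between CI and C and overlap between SI and S, and Ubd shows 3 CI livers at 6.67 to 7.84.

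Members of 19 gene groups and of 12 sets of cell type markers were read against these background figures. Of their 544 tested genes, 0 were called for the average isoflavone effect. List medians ran from −0.14 to 0.11, against −0.01 over all 10699 genes, of which 54% were lower with isoflavone. The sign of a list median depended on array scaling for 12 of the 31 lists, and kept its sign under 3 other scalings for 19. Over all genes, 3.33% had an unadjusted p under 0.05 for the average effect and 22.3% were called for protein source.

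Enzymes that conjugate isoflavones were examined first. Of 13 tested sulfotransferase genes, 7 were higher and 6 lower with isoflavone, with a median of 0.01 whose sign changed with scaling. Sult1a1, the main phenol sulfotransferase, was the 1 member with an unadjusted p under 0.05. Its levels were 14.74, 14.55, 14.75, 14.61 and 14.51 in CI livers, against 14.83, 14.56, 14.31, 14.30 and 14.18 in C livers. They were 15.01, 14.75, 14.45, 14.66 and 14.67 in SI livers, against 14.29, 14.54, 14.62, 14.31 and 14.56 in S livers. Both pairs overlapped. The average difference was 0.22 ± 0.08, with an interval of 0.05 to 0.39, and was 0.19 on casein and 0.24 on soy protein. Sult1e1, the estrogen sulfotransferase, differed by −0.03, with an interval of −0.46 to 0.40. Of 17 tested genes of glucuronidation and of conjugate transport, 11 were lower and 6 higher, and 0 had an unadjusted p under 0.05. Abcc2, which exports conjugates into bile, differed by −0.18 (−0.44 to 0.08) and the glucuronosyltransferase Ugt2b1 by −0.36 (−0.92 to 0.20). The widest interval of the list belonged to Ugt2b, −3.73 to 1.79 around −0.97, so these data say little about it. This gene was singled out after its values were seen. Probe sets of one UDP-glucuronosyltransferase or sulfotransferase can bind transcripts of close paralogs, which was not tested.

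Drug-metabolising enzymes, like all 18625 tested probe sets, had no call. Among 37 tested cytochrome P450 and flavin monooxygenase genes, 25 were higher and 12 lower, with a median of 0.03. Cyp3a23-3a1, a steroid- and drug-oxidising P450, had an average difference of 0.25 ± 0.10 (0.05 to 0.46). Its CI livers held 13.64 to 14.19 against 13.37 to 14.00 in C livers, and its SI livers held 13.45 to 13.77 against 13.10 to 13.77 in S livers. Cyp2a1, a steroid hydroxylase, differed by −0.29 (−0.63 to 0.06). The aryl hydrocarbon receptor target Cyp1a2 differed by −0.12 (−0.34 to 0.11). Cyp1a1, the other classical target of that receptor, was too dim for the filter, with means of 7.11 in CI, 7.06 in C, 7.25 in SI and 6.76 in S livers.

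Genes of estrogen response and nuclear receptors were read next. The estrogen receptor gene Esr1 was also too dim for the filter, with means of 7.03 in CI, 7.29 in C, 7.87 in SI and 7.56 in S livers. Of 18 tested estrogen-responsive liver genes, 9 were higher and 9 lower, with 0 at an unadjusted p under 0.05. Cyp17a1, an enzyme of androgen synthesis, had 10.71 to 11.26 in CI livers, against 9.56 to 10.39 in C livers. It had 9.09 to 10.77 in SI livers, against 9.55 to 10.43 in S livers. CI and C livers were apart and SI and S livers were mixed. The average difference was 0.36, with an interval of −0.01 to 0.73. Nrip1, a corepressor of nuclear receptors, differed by −0.19 (−0.45 to 0.07). Among 29 metabolic nuclear receptors and their partners, 10 were higher and 19 lower, with a median of −0.03. Nr1h3, the liver X receptor alpha, differed by 0.17 (0.01 to 0.33) and Nr2f2, an orphan receptor, by −0.16 (−0.31 to −0.02). Ppara, the receptor that drives fatty acid oxidation, differed by −0.01 (−0.26 to 0.24), and Nr0b2, a repressor in bile acid feedback, by 0.02 (−0.87 to 0.91).

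Lipid genes, the subject of the study's title, gave no call for isoflavone while many were called for protein source. Of 33 tested genes of fatty acid and triglyceride synthesis, 18 were higher and 15 lower with isoflavone. For protein source, 15 of the same 33 were called lower on soy protein and 1 higher. Over all genes, 22.3% were called for protein source in either direction. The list was chosen with earlier results of these data known. Fasn, the fatty acid synthase, had 13.58, 13.59, 14.33, 13.87 and 11.80 in CI livers, against 14.01, 14.23, 13.51, 13.02 and 13.49 in C livers. It had 13.89, 14.08, 12.34, 11.43 and 11.86 in SI livers, against 13.03, 11.95, 10.91, 12.02 and 11.77 in S livers. Animals on one diet differed by over 2 log2 units in CI, SI and S livers. The average isoflavone difference was 0.28, with an interval of −0.46 to 1.03, and the protein difference was −1.22.

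Pnpla3, a lipogenic triglyceride lipase, shows the same contrast at a larger scale. Its isoflavone difference was 0.39 (−0.31 to 1.08), and its protein difference was −4.38 with an adjusted p of 5.24e-08 in limma. Me1, the malic enzyme that supplies NADPH for lipogenesis, had an isoflavone difference of −0.17 (−0.45 to 0.11) and a protein difference of −1.85. Acacb, an acetyl-CoA carboxylase, had −0.21 (−0.44 to 0.01) and −1.09. Srebf1, the transcription factor of lipogenesis, had an isoflavone difference of 0.16 (−0.33 to 0.65). For Pnpla3, Me1 and Acacb the isoflavone interval excludes a difference of the size seen between proteins.

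Fatty acid oxidation, cholesterol and bile acid genes had no call, which holds for all 18625 tested probe sets and is not particular to them. Of 42 tested targets of fatty acid oxidation and PPAR-alpha, 24 were higher and 18 lower, and the interval of 39 lay inside 1.5-fold. Over all 10699 genes the interval of 10209 (95.4%) did, so this count is not particular to the list. Cpt1a, the gate of mitochondrial fatty acid import, differed by −0.19 (−0.60 to 0.23). Fgf21, a fasting hormone of the liver, differed by −0.06 (−0.68 to 0.56). Of 23 tested genes of cholesterol synthesis and uptake, 13 were higher and 10 lower. Insig1, which retains the sterol sensor in the endoplasmic reticulum, had 13.15 to 13.96 in SI livers, against 12.09 to 13.04 in S livers, and 12.23 to 14.66 in CI livers, against 13.38 to 14.46 in C livers. SI and S livers were apart and CI and C livers were not, and the average difference was 0.31 (−0.17 to 0.80).

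Of 21 tested bile acid genes, 9 were higher and 12 lower. Cyp7a1, whose enzyme limits the rate at which bile acids are made, had 7.67 to 9.79 in CI livers, against 8.34 to 10.51 in C livers. It had 9.70 to 10.46 in SI livers, against 8.44 to 11.26 in S livers. Both pairs overlapped widely, and the average difference was −0.11 (−0.86 to 0.65). Of 27 tested genes of sterol efflux and lipoproteins, 17 were higher and 10 lower. Apoc2, the cofactor of lipoprotein lipase, differed by 0.18 (0.06 to 0.29) and Pltp, the phospholipid transfer protein, by −0.23 (−0.43 to −0.04). Abcg5 and Abcg8, the partners of the sterol exporter into bile, differed by 0.01 (−0.51 to 0.53) and 0.12 (−0.44 to 0.69). Their protein differences were 0.87 and 0.96, both called. The means of Abcg8 in CI and C livers lay below the filter level.

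**Figure D3:**
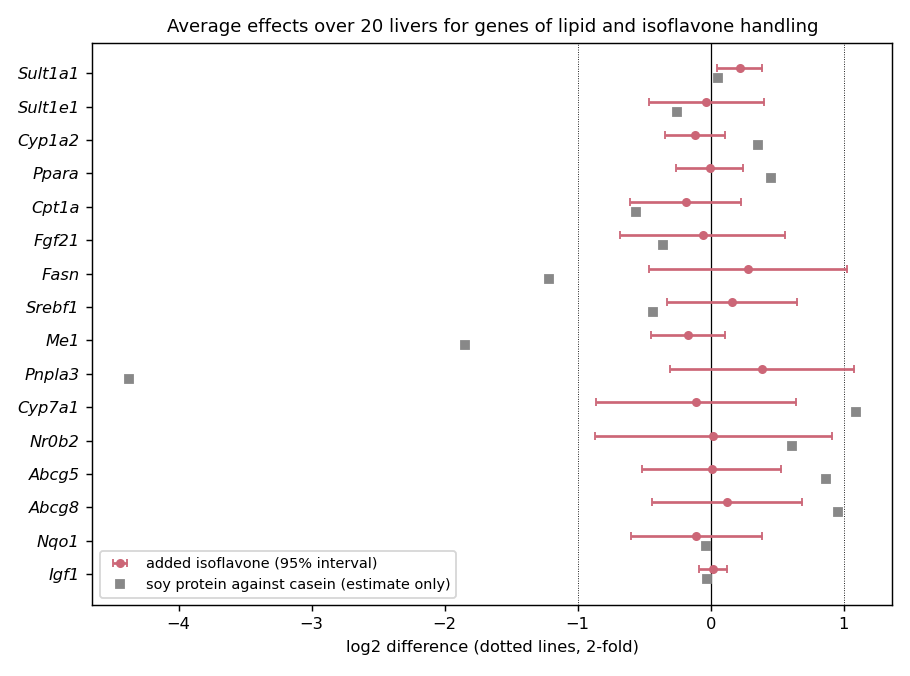
Average log2 difference from limma (20 arrays) for genes of lipid and isoflavone handling, with red points and 95% confidence intervals for added isoflavone, grey squares for the estimate of protein source (soy protein minus casein) and dotted lines at 2-fold. The isoflavone estimates run from −0.19 for Cpt1a to 0.39 for Pnpla3, and the intervals of Pnpla3 and Fasn reach past 2-fold. For protein source, Pnpla3 reaches −4.38.

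The remaining groups are summarised by their counts. Of 47 tested genes of amino acid response and catabolism, 33 were higher and 14 lower, with a median of 0.07 that kept its sign under all 3 other scalings. The list median was −0.03 on casein and 0.15 on soy protein. Gnmt, which consumes S-adenosylmethionine, differed by 0.32 ± 0.11 (0.10 to 0.54) and Gpt2, an alanine aminotransferase, by 0.34 (0.01 to 0.67). Of 27 tested acute phase genes, 21 were higher and 6 lower, but the sign of this median changed with scaling. Socs3, a feedback inhibitor of cytokine signalling, differed by 0.27 (0.06 to 0.49) and Orm1, an acute phase glycoprotein, by 0.20 (0.00 to 0.39). Igf1, the growth hormone-dependent growth factor, had one of the tightest intervals among the named genes, −0.09 to 0.12 around 0.02. Khk, the fructokinase, differed by 0.17 (0.02 to 0.32). The NRF2-responsive gene Nqo1 differed by −0.11 (−0.60 to 0.39), and 0 of 34 genes of its list had an unadjusted p under 0.05. The same count was 0 of 19 for the circadian clock, 0 of 23 for heat shock and the unfolded protein response, and 0 of 12 for thyroid hormone transport and response.

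Cell cycle genes were mostly lower, without a call. Of 29 tested, 22 were lower and 7 higher, with a median of −0.11 that kept its sign under all 3 other scalings. The median was −0.14 on casein and −0.02 on soy protein. Ccnb2, a mitotic cyclin, had 9.34 to 9.85 in CI livers, against 10.01 to 10.44 in C livers. It had 9.05 to 9.77 in SI livers, against 9.16 to 9.92 in S livers. CI and C livers were apart, SI and S livers were not, and the average difference was −0.33 (−0.56 to −0.09). Top2a, the mitotic topoisomerase, differed by −0.37 (−0.66 to −0.07). Cdkn3 and Foxm1, which complete the 4 members lower at an unadjusted p under 0.05 and were named for that reason after their values were seen, differed by −0.35 and −0.16. The largest estimate of the list was in the other direction, 0.49 for Cdkn1a, also named after its values were seen. Of the higher members, 0 had an unadjusted p under 0.05.

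Markers of Kupffer cells and macrophages, the resident phagocytes of the liver, were lower in all 11 tested members, by 0.07 to 0.25, and 0 were called. Cd68, a lysosomal macrophage protein, had 10.55, 10.74, 10.37, 10.22 and 10.72 in CI livers, against 10.84, 11.14, 11.14, 11.02 and 10.67 in C livers. It had 10.74, 10.71, 11.07, 10.45 and 11.01 in SI livers, against 11.07, 10.85, 11.12, 10.67 and 10.60 in S livers. Both pairs overlapped, and the average difference was −0.25 (−0.46 to −0.05). The list median was −0.27 on casein and −0.05 on soy protein. The log2 of the summed intensity of the 11 markers was 14.61 to 15.12 in CI livers, against 15.12 to 15.27 in C livers. It was 14.79 to 15.43 in SI livers, against 14.88 to 15.39 in S livers. The casein groups barely met at 15.12, and the soy protein groups overlapped fully. None of these markers was at the intensity floor. In RNA from whole liver, fewer cells of a type and less RNA per cell cannot be told apart.

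Markers of other cells had small medians. Endothelial markers were lower in 10 of 11, with a median of −0.07, and lymphocyte markers in 5 of 7, with a median of −0.09. Their summed levels overlapped between groups on both proteins. Stellate cell and fibroblast markers were lower in 8 of 14. Hepatocyte markers were higher in 7 of 10, but the sign of their median changed with scaling. That median was −0.03 on casein and 0.14 on soy protein. The summed level of the hepatocyte markers was 18.67 to 19.03 with isoflavone and 18.57 to 18.95 without it. Pericentral hepatocyte markers had a median of −0.06 and periportal ones of 0.11. The part of cell composition in the gene differences above was not tested.

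**Figure D4:**
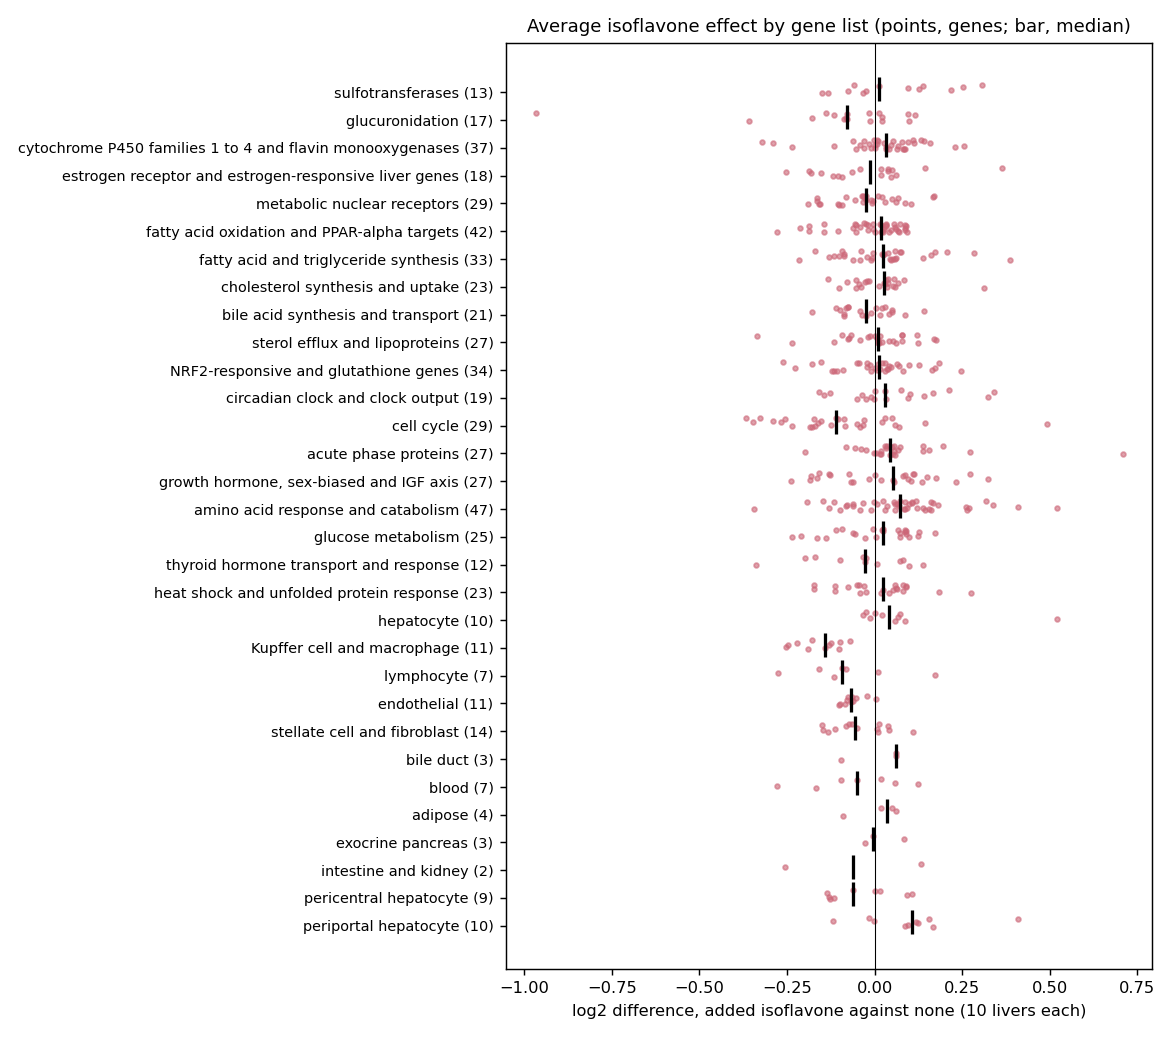
Average isoflavone difference (log2, 10 livers with against 10 without) of each tested gene, as points, and the median as a black bar, for each gene group and cell type list with its number of tested genes in brackets. The median of the Kupffer cell and macrophage list is lowest at −0.14 and that of the periportal list highest at 0.11, and 0 members of any list were called.

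The average above was taken over 2 effects that differed in sign for most probe sets. Isoflavone on casein (CI − C) gave 0 calls in limma, with 1772 probe sets (9.51%) at an unadjusted p under 0.05 and a smallest adjusted p of 0.1457. Isoflavone on soy protein (SI − S) gave 0 calls, with 725 (3.89%) and a smallest adjusted p of 0.1586. Without S replicate 3 the count of 725 became 1265 (6.79%). These differences share no array. Their signs agreed for 7343 probe sets (39.4%), and their Pearson correlation over probe sets was −0.27 (Spearman −0.27). Probe sets share arrays, so this is a description. Both effects had an unadjusted p under 0.05 in 98 probe sets, and 9 of these had the same sign. Every CI liver lay on one side of every C liver for 323 probe sets (1.73%), and every SI liver on one side of every S liver for 91 (0.489%). No probe set had both pairs apart in the same direction.

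The interaction, which tests whether isoflavone acted differently on the proteins, gave 1 call (0.00537%), with 1882 probe sets (10.1%) at an unadjusted p under 0.05. The call was a probe set with no gene name here. Its levels were 8.25, 8.51, 8.39, 8.43 and 8.23 in CI livers, against 7.87, 6.86, 7.09, 6.40 and 8.07 in C livers. They were 6.15, 7.01, 6.20, 5.93 and 5.47 in SI livers, against 7.36, 8.25, 7.89, 7.98 and 7.69 in S livers. It was higher with isoflavone on casein and lower on soy protein, with no overlap in either pair. Its means in C (7.25) and SI livers (6.15) were below the filter level of 7.39, so it was tested only through the diets on which it was brighter, and the size of its differences is uncertain. The difference of the effects was −2.79 ± 0.40, with an adjusted p of 0.0179 in limma. In 8 of the 20 fits that left out 1 array, no probe set was called for the interaction. The other fits had up to 2 calls, and whether this probe set was among them was not recorded. No probe set was called without C replicate 3 and CI replicate 3 together.

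Named genes of smallest interaction p missed the threshold. Kcns2, a modulatory potassium channel subunit, had 9.64, 8.40, 9.60, 9.48 and 9.83 in CI livers, against 6.95, 6.61, 7.46, 7.48 and 7.56 in C livers. It had 6.26, 6.02, 8.25, 6.18 and 7.27 in SI livers, against 6.84, 9.55, 8.66, 8.35 and 9.75 in S livers. CI livers were all above C livers, SI and S livers overlapped, and the interaction had an adjusted p of 0.0612 in limma. Its C and SI means, 7.21 and 6.80, were below the filter level, which limits the precision of its differences. Its average isoflavone difference was 0.17 (−0.53 to 0.87), the mean of 2.18 on casein and −1.84 on soy protein. Bpifa5, of the secreted BPI-fold family, had 0.97 on casein and −0.46 on soy protein, with the same adjusted p. Endog, a mitochondrial nuclease, and Pros1, the anticoagulant protein S, had opposite signs as well, 0.41 and −0.31 for Endog and 0.34 and −0.21 for Pros1, each with an interaction adjusted p of 0.365.

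**Figure D5:**
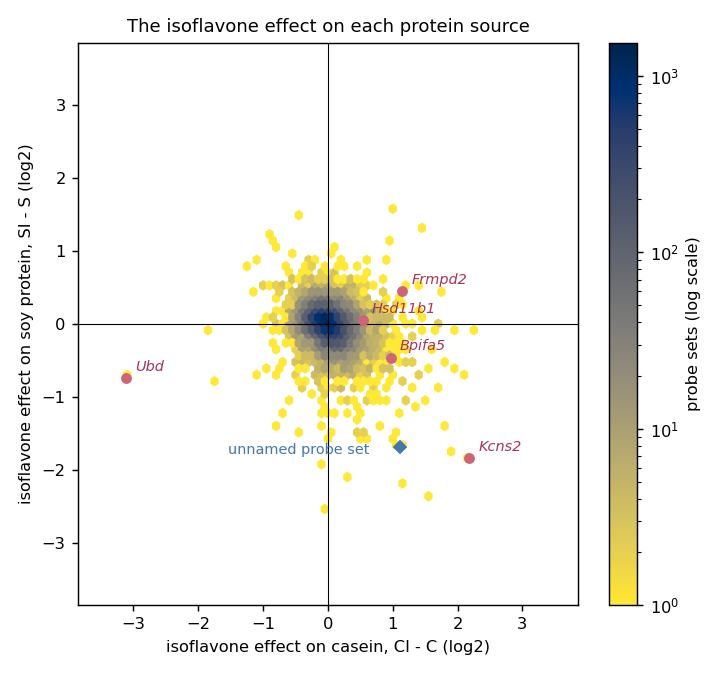
Isoflavone effect on casein (CI − C, horizontal) against that on soy protein (SI − S, vertical), log2, with probe sets binned in hexagons coloured by number on a log scale (18625 probe sets). The cloud tilts downward (Pearson −0.27), and the marked unnamed probe set, Kcns2 and Bpifa5 lie at positive values on casein and negative values on soy protein.

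Livers of rats on T20, whose isoflavone level CI and SI were matched to, were not in the fit and are given as values. Frmpd2 averaged 7.28 ± 0.39 in T20 livers (SD, n = 5), next to 8.21 in CI, 7.63 in SI, 7.07 in C and 7.18 in S livers. Hsd11b1 averaged 14.87 ± 0.19 in T20 livers, next to 14.65 in CI, 14.98 in SI, 14.11 in C and 14.93 in S livers. Cnp averaged 9.68 ± 0.25 in T20 livers, next to 9.37 in CI, 9.34 in SI, 9.78 in C and 9.69 in S livers. For Frmpd2, Hsd11b1 and Cnp the T20 mean thus lay nearer to the S mean than to the SI mean. The same held for Dcbld2, Septin3, Nfasc, Tmem229a, Rpl37a, Ly6e, Kdm2a and Cbx6, and so for most of the leading genes. The T20 mean lay nearer to the SI mean for Ahnak2, Kif2a, Kat7, Trim37 and Ubd. Ahnak2 averaged 7.88 in T20 livers, next to 7.86 in SI and 7.58 in S livers. Kif2a averaged 8.29 in T20 livers, next to 8.20 in SI and 8.56 in S livers. Tofu and the supplemented diets differ in more than isoflavone, and these levels were not compared by a test.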

How the data were processed

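Gene expression was measured in 30 rat livers with 1 Affymetrix array each, and the labels call the 5 arrays of a diet biological replicates. Per the labels, the authors normalized the arrays with the SuperNORM data service and deposited 1 intensity per probe set. No source used here states whether that scale is linear or what its reference level is. The values were treated as linear intensities, and every log2 difference rests on this. Values under 16 were set to 16 before taking log2. After 57 controls were removed from 31099 probe sets, those with a mean over 30 arrays above the 40th percentile (7.39) were tested, 18625 in all. A gene was named only from a probe set with 1 symbol (20826 probe sets, with 436 holding several and 9780 none) and represented by its probe set of highest mean.

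A model with a mean for each of the 4 diets CI, C, SI and S (16 residual degrees of freedom, variance trend) came from limma 3.58.1 under R 4.3.3. Tests were two-sided, and p-values were adjusted by Benjamini-Hochberg within each contrast, across the 18625 probe sets. The number of arrays limits the precision. Named genes were the 8 of smallest p in each direction (none passed), the 2 leading members of each gene group, the leading member of each cell type list, the measured members of a fixed set of genes and the 4 of smallest interaction p. The comparison, the lists and the fixed genes were chosen with earlier results of these data known. Genes named beyond these rules, to complete short counts, were chosen after their values were seen. Alternatives were 3 array scalings, a lower and a higher floor, filtering of dim probe sets dropped or made stricter, a fit without the variance trend, all 30 arrays, weighted arrays, a block for replicate number, an additive model, the mean of a gene's probe sets, a stricter threshold and the omission of arrays; the closing section gives their effect. The procedure was tested on simulated data.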

Additional observations from a re-analysis of the deposited data

Results flagged for a closer look

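A test of the difference between the isoflavone effects on soy protein and on casein singled out the probe set with no gene name described above, with a difference of −2.793. Single animals stood apart from the other 4 on their diet in 19 of 328 groups examined (82 named genes on 4 diets), where chance alone gives about 1 in 20. On CI these were Cnp in replicate 2 at 9.704 (others 9.211 to 9.347), Hsph1 in replicate 3 at 10.62, Pnpla3 in replicate 5 at 10.74 (others 12.70 to 13.18) and Kcns2 in replicate 2 at 8.398. On C they were Cyp3a23-3a1 in replicate 1 at 14.00, Bhlhe40 in replicate 5 at 9.194, Glul in replicate 2 at 12.24 and Bpifa5 in replicate 5 at 7.373. On SI they were Kif2a in replicate 3 at 8.349, Cyp3a23-3a1 in replicate 1 at 13.77, Gpx4 in replicate 4 at 13.60, Hspa1a in replicate 4 at 8.889, Glul in replicate 5 at 13.27, Sult1e1 in replicate 3 at 14.34 and Fgf21 in replicate 5 at 10.97 (others 8.196 to 8.878). On S they were Ucp2 in replicate 3 at 10.01, Npas2 in replicate 1 at 9.489, Orm1 in replicate 3 at 14.93 and Nqo1 in replicate 3 at 11.80. No cause was tested.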

How the results depend on the processing

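The average isoflavone effect had 0 calls in limma under all 14 other settings and all 20 fits that left out 1 array. Unadjusted p-values under 0.05 numbered 584 to 816 when 1 array was left out and 363 to 1270 under the other settings. Some of the other settings tested fewer or more probe sets, so their counts are not comparable. As shares of the probe sets tested, the ranges were 3.136% to 4.381% and 2.923% to 4.891%. Calls with 1 array left out ran from 0 to 2 on casein (2 without C replicate 1, 1 without CI replicate 5), from 0 to 1 on soy protein (without C replicate 4, SI replicate 2 or SI replicate 3) and from 0 to 2 for the interaction. The interaction had 2 calls with no filter, 0 with a 60th percentile filter, 3 with all 30 arrays, 3 with array weights, 0 at a threshold of 0.01 and 0 without C replicate 3 and CI replicate 3 together. With the replicate number as a block, the interaction had 3 calls and the average effect 0. The labels do not say that a shared number marks a shared litter, batch or day. Deviations of same-numbered animals correlated at −0.147 to 0.314 over 30 pairs, 11 of which exceeded 0.1, and 10 of 20 arrays correlated best with their own number, a hint from the data and not from the design. The share of probe sets at an unadjusted p under 0.05 on casein was 9.51%, against 14.34% with arrays centred on their medians and 5.992% without C replicate 3 and CI replicate 3. On soy protein it was 3.89%, against 2.711% to 6.792% with 1 array left out. The correlation of the effects on casein and soy protein stayed between −0.3135 and −0.1792. Of 2773 values of named genes under these settings 0 passed, the lowest adjusted p was 0.0981 (without C replicate 1), and 55 changed sign, in 10 genes (Lpin2, Sult1e1, Cyp7a1, Abcg5, Ppara, Nr0b2, Nqo1, Fgf21, Igf1 and Kcns2). The causes were not tested. Dim genes such as Frmpd2 have little signal over background.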

Other observations

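Average isoflavone differences of over 2-fold were estimated for 10 probe sets, 5 higher and 5 lower, and 0 passed in limma. They were chosen for their size after the values were seen. Most had animals at widely separate levels within a diet. Mlc1, a membrane protein known from astrocytes, had 10.25, 10.39, 10.96, 10.60 and 7.03 in CI livers, against 6.16, 6.93, 10.39, 11.36 and 7.34 in C livers. It had 11.85, 6.75, 11.94, 7.35 and 11.66 in SI livers, against 6.84, 7.13, 7.15, 10.78 and 11.01 in S livers. High and low animals were present on all 4 diets, and the average difference was 1.37 ± 0.88 (−0.46 to 3.20). A probe set of Ranbp2, a nuclear pore protein, had 4.00, 4.19, 8.36, 5.48 and 5.09 in SI livers, against 8.84, 7.86, 8.50, 6.30 and 8.51 in S livers. In CI and C livers it stayed between 7.95 and 9.04, and its average difference was −1.31 ± 0.42. The SI mean of 5.42 was below the filter level and SI replicate 1 was at the intensity floor, so the size of this difference is uncertain. The other tested probe sets of the gene had −0.04 and 0.02. Clca2, of a family of chloride channel regulators, differed by −1.26 (−2.49 to −0.04) and Atl1, a membrane-shaping GTPase, by 1.03 (0.13 to 1.94).

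A dimmer probe set of Abcb1a, a multidrug exporter, had an average difference of −0.59 ± 0.15 with an unadjusted p of 0.000655 and an adjusted p of 0.9997 in limma, while the brighter probe set that represented the gene had −0.14.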
